A study of Caenorhabditis elegans with 2 samples.

Results

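The cuticle collagen genes of Caenorhabditis elegans were examined in peak lists for CEH-16, the worm engrailed homeodomain protein, mapped by chromatin immunoprecipitation and sequencing. The genes were chosen by name: 156 protein-coding genes called col- plus a number and 18 with other names (rol, sqt, dpy, lon and bli genes known as cuticle collagens), 174 in all of 19985 protein-coding genes. The rule uses names and no peak values, although results of these data were known when the family was chosen. A gene was given every peak whose summit lay in its body or up to 2000 bp upstream of its start, and this span is called its window.

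The worms were L3 larvae of strain OP82, genotype unc-119(tm4063) III with the transgene wgIs82, which carries CEH-16 fused at its C terminus to GFP and FLAG. Chromatin came from whole animals, males and females pooled as labelled. The only group holds 2 biological replicates, and no conditions were contrasted. The labels give the antibody as ceh-16 and do not name the promoter of the transgene. Because whole animals were pooled, binding in a few cells and weak binding in many cells cannot be told apart.

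The list for replicate 1 held 19150 peaks and that for replicate 2 held 30000, both relaxed lists, and 30000 were called on the pooled replicates. A further list, thresholded by the irreproducible discovery rate (IDR), held 214 peaks. The signal of each peak is the authors' own value on a scale that is not stated, so it is used to rank and describe peaks within a list. The lists hold no read counts, so depth is unknown. Intervals below are exact 95% Clopper-Pearson intervals and cover the counting of genes or summits only. Neighbouring collagen genes can share a summit or sequence, so genes are not independent replicates.

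Cuticle collagens are short secreted proteins with Gly-X-Y repeats that trimerise, are cut by proteases and are cross-linked outside the cell into the layers of the worm cuticle. They are made by the epidermis, including the syncytium hyp7 and the lateral seam cells, and different sets are transcribed in waves within each moulting cycle and at different stages. CEH-16 is known for its role in seam cells, where it maintains seam fate and opposes fusion with the syncytium.

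Without regard to gene length, collagen genes held summits somewhat less often than all protein-coding genes did, by an amount that depended on the list. Of the 174 genes, 122 (70.1%, interval 62.7 to 76.8) had a summit in the pooled list, against 72.5% of all protein-coding genes. The replicate 1 list had a summit at 90 collagen genes (51.7%), against 57.8% of all genes. The replicate 2 list had one at 115 (66.1%), against 72.7%. Both replicate lists held a summit, not always the same one, at 66 collagen genes (37.9%, interval 30.7 to 45.6), against 47.1% of all genes. A pooled summit with a replicate summit within 200 bp in both lists, called matched here, was present at 39 collagen genes (22.4%, interval 16.4 to 29.3), against 24.0% of all genes. Each collagen share here was below the share of all genes, with gene length not taken into account. For a summit in both replicate lists the share of all genes lay outside the collagen interval. That interval treats genes as independent, which they are not, and no share at similar body length was computed for this measure. Among genes with bodies of 1059 to 1600 bp the collagen share was the higher one for pooled and for matched summits, as given below. For bodies over 2000 bp, with few members, it was the lower one. The relaxed lists cover most genes, so a summit in them is a common property.

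**Figure D1:**
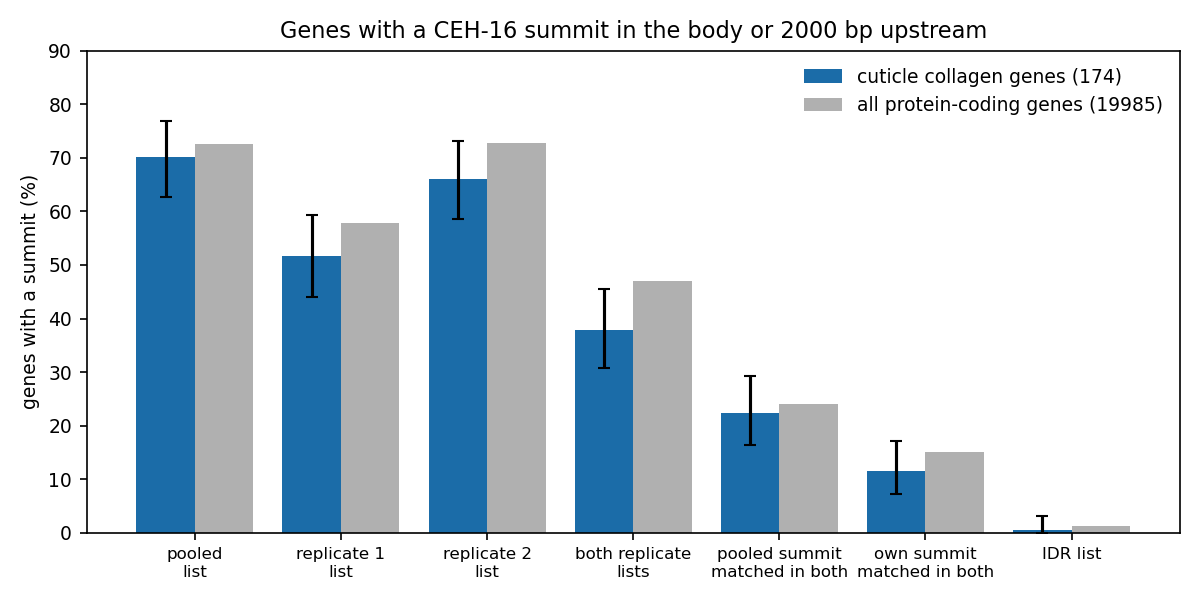
Percentage of genes with a CEH-16 summit in the body or up to 2000 bp upstream, in each list, for cuticle collagen genes (blue, error bars are exact 95% intervals) and all protein-coding genes (grey). Each blue bar is lower than its grey bar, with 70.1% against 72.5% in the pooled list and 22.4% against 24.0% for matched summits. Gene length is not taken into account, and collagen genes are short. An own summit has the gene's start as the nearest one and is defined in the text.

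Towards the top of the pooled list the order depended on whether genes or summits were counted. A summit among the 5000 peaks of highest signal lay at 35 collagen genes (20.1%), against 21.2% of all genes. For the 1000 peaks of highest signal the count was 6 genes (3.45%), against 5.21%. Counted by summits, 21.4% of collagen summits (interval 15.5 to 28.3) and 16.7% of all gene summits were among those 5000, and 4.05% (interval 1.64 to 8.16) and 3.29% among the 1000. In the IDR list 1 collagen gene, col-94, had a summit (0.575%, interval 0.0145 to 3.16), against 1.25% of all genes. No summit in the pooled or either replicate list was found at 29 collagen genes (16.7%), against 13.9% of all genes.

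Collagen genes are short, and longer windows catch more summits. Their bodies ran from 521 to 9946 bp with a median of 1220 bp, against a median of 2026 bp over all protein-coding genes. Of the 86 collagen genes with bodies in the interquartile range of the family, 1059 to 1600 bp, 60 had a pooled summit (69.8%, interval 58.9 to 79.2), against 64.2% of all genes in that range. A matched summit was at 18 of the 86 (20.9%, interval 12.9 to 31), against 17% of all genes in that range. Per kb of window, collagen genes held 0.297 pooled summits and all genes 0.304, and matched summits came to 0.0756 per kb for collagen genes and 0.0602 for all genes. By length class, bodies up to 1000 bp had a pooled summit at 65.2% of 23 collagen genes and 55.7% of all genes, and the class up to 2000 bp at 70.6% of 126 and 65.7%. The class up to 4000 bp had one at 72.7% of 22 collagen genes and 77.3% of all genes, and longer bodies at 2 of 3 and 89.9%. Matched summits had the same order, with 26.1% and 15.3%, 23% and 17.6%, 18.2% and 24.3%, and 0 of 3 and 40.0% of all genes. The collagen share was thus the higher one for shorter bodies and the lower one for longer bodies, where there are few members. The differences were not tested.

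Most collagen genes with a summit had few of them. One pooled summit was found at 76 genes (43.7%), 2 at 35 (20.1%) and 3 at 10 (5.75%), and col-115, with a body of 2744 bp, had 5. Of all protein-coding genes 30.9% had 1, 21.3% had 2 and 10.5% had 3. The mean per gene was 1.04 for collagen genes and 1.588 for all genes, with window length not taken into account. The 181 pairs of gene and summit came from 173 distinct summits, since 8 lay in the windows of more than one collagen gene. Their pooled signal ran from 11.5 to 61.6, with a median of 15.4 (quartiles 12.8 and 18.9). The median over the 24439 distinct nuclear summits in windows of protein-coding genes was 15.1 (quartiles 13.1 and 18.4), so the typical collagen summit was close to the typical summit of the list.

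The strongest collagen signal belonged to col-94, which lies within the dynein heavy chain gene dhc-4. Its 3 pooled summits had signals of 61.6, 37.7 and 35.2. The strongest, a peak at chrIII:10989484-10989833, lay 1786 bp upstream of the col-94 start, in an intron of dhc-4 and 20 bp from the small nuclear RNA gene R07E5.16. It ranked 87 of the pooled list and was the one IDR summit of the family. The matched summits had signals of 28.3 in replicate 1 (rank 83) and 35.7 in replicate 2 (rank 104), so both replicates held a summit within 200 bp near the top. The replicate 2 summit, at position 10989765, lay between the pooled summits of signal 61.6 (10989659) and 35.2 (10989872) and cannot be given to 1 of them. The summit of signal 35.2, in coding sequence of dhc-4, lay 1999 bp upstream, just inside the window, and was matched to the same replicate summits. The summit of signal 37.7 lay 23 bp into col-94, in its 5′ UTR, with 21.5 in replicate 1 (rank 187) and 10.4 in replicate 2 (rank 16927). That one therefore stood high in 1 replicate only.

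Next came summits at col-130, col-85 and the pair dpy-10 and dpy-2. The col-130 summit (pooled 41.5, rank 257) lay 1313 bp upstream, in an intron of ugt-65, a predicted glucuronosyltransferase gene, and 17 bp from the non-coding gene F08G5.10. Its replicate signals were 14.7 and 15.9 in replicates 1 and 2. It lay below the lowest signal of the IDR list, 43.6. The col-85 summit (37.5) lay in an intron of col-85, 284 bp from its start and within an annotated tRNA gene, with 14.1 in replicate 1 and 22.3 in replicate 2. A summit of 30.3 between the divergent genes dpy-10 and dpy-2 lay 477 bp upstream of dpy-10 and 1588 bp upstream of dpy-2, inside T14B4.19 and 12 bp from the non-coding gene T14B4.14. Its replicate signals were 9.84 in replicate 1 and 21.0 in replicate 2.

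These summits are shown with 50 bp on each side, on the strand of the collagen gene and on ce11, because they are the strongest summits at the 5 collagen genes of highest pooled signal, with the further col-94 summit at its start, and can be compared with the homeodomain core TAAT. The col-94 summit of signal 35.2, matched to the same replicate summits as the strongest, is not shown. Capitals mark that core on either strand, so TAAT or ATTA. The windows are chrIII:10989609-10989709 and chrIII:10987800-10987900 for col-94, chrIV:12429779-12429879 for col-130, chrII:12494761-12494861 for col-85 and chrII:6712654-6712754 for dpy-10, all on the minus strand, read from the RefSeq copy of this assembly (WBcel235).
col-94 upstream summit: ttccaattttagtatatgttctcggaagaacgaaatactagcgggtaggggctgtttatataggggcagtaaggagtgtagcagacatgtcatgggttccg
col-94 summit at the start: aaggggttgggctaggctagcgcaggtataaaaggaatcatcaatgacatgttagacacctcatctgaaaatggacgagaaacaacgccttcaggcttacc
col-130: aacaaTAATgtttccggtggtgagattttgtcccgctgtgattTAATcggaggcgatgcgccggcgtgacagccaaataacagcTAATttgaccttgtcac
col-85: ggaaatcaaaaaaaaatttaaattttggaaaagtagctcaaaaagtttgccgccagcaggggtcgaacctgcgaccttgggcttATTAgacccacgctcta
dpy-10 and dpy-2: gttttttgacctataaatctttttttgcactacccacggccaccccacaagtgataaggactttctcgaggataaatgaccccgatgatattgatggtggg
The col-94 windows and the dpy-10 window held no core, the col-85 window held 1 and the col-130 window held 3.

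The next members in order of pooled signal were col-81 (30.2), col-71 (27.8), col-185 (27.5), col-20 (27.5), col-104 (27.2), col-140 (27.1) and col-144 (27.0). The col-81 summit lay 1951 bp upstream in coding sequence of ram-2, with 10.7 in replicate 1 and 18.8 in replicate 2. The col-71 summit lay 202 bp upstream and was nearer to the start of Y49F6B.2, with 8.72 in replicate 1 and 25.1 in replicate 2. The col-185 summit lay 923 bp upstream, inside an annotated tRNA gene. The col-20 and col-140 summits, 1298 and 1828 bp upstream, had other genes, col-73 and F26F12.2, as the nearest start. The summits of col-104 and col-144, 126 and 537 bp upstream, had those collagens as the nearest start. The col-144 summit was found in replicate 2 (16.4) and not matched in replicate 1.

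Of the 12 collagen genes of highest pooled signal, 5 had their strongest summit inside another protein-coding gene and 7 had it within 200 bp of a non-coding gene or pseudogene. For 11 of the 12 it was matched in both replicates. The summit shared by dpy-10 and dpy-2 was counted for both genes in each of these counts. The same counts over all genes are not given here. The part of these neighbouring genes in the signal was not tested. Over all 173 collagen summits, 55 (31.8%) lay inside a protein-coding gene that is no collagen, and 135 (78.0%) had a collagen gene as the nearest start. No corresponding shares over all summits are given, so whether these are unusual is not known. A tRNA, snRNA, snoRNA or rRNA gene lay within 200 bp of 6 collagen summits (3.47%, interval 1.28 to 7.40), against 1.40% of all summits in gene windows.

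**Figure D2:**
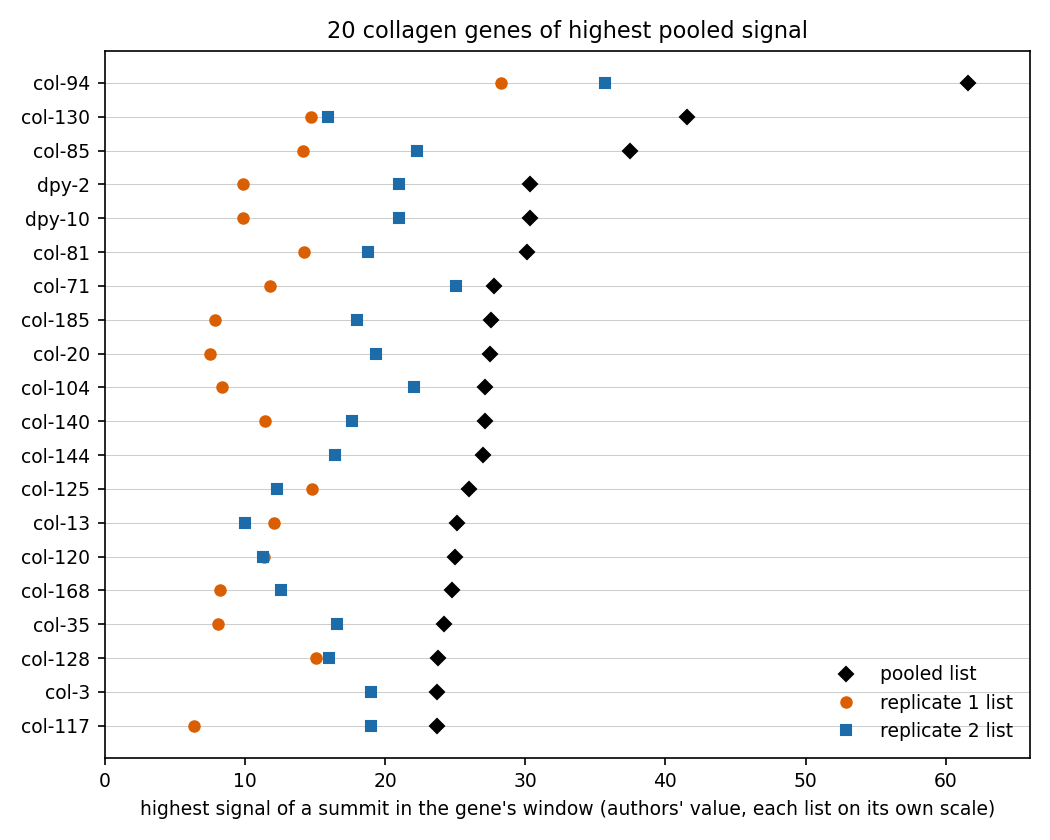
Highest signal of a summit in the window of each of the 20 collagen genes of highest pooled signal, in the pooled list (diamonds), replicate 1 list (circles) and replicate 2 list (squares), each on its own scale. The pooled value of col-94, 61.6, stands above 41.5 for col-130 and 37.5 for col-85, and a missing symbol means that the list had no summit in the window.

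A summit was called a gene's own where the gene had the nearest protein-coding start, no other protein-coding gene contained the summit and no tRNA, snRNA, snoRNA or rRNA gene lay within 200 bp, a definition set after the values were seen. By it 70 collagen genes (40.2%, interval 32.9 to 47.9) had a pooled summit of their own, against 53.0% of all genes. Matched in both replicates it was 20 genes (11.5%, interval 7.16 to 17.2), against 15.1% of all genes. These shares do not take body length into account, and none was computed for own summits at similar length. Of all pairs of gene and summit 56.4% lay in the body, against 29.8% of collagen pairs. The highest own signal was 27.2, at col-104, where the summit lay inside an annotated pseudogene, which the definition does not exclude. The median over the 90 pairs of a collagen gene and its own summit was 15.8. Members among the 15 strongest with matched summits that had one of their own were col-104, col-125, col-13, col-120 and col-168.

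These own summits often held different ranks in the 2 replicate lists, of 19150 and 30000 peaks. The col-104 summit, inside an annotated pseudogene, ranked 1378 in the pooled list, with 8.37 in replicate 1 (rank 8131) and 22 in replicate 2 (rank 707). The col-125 summit (26.0) lay 44 bp into the gene, in coding sequence, with 14.8 in replicate 1 (rank 824) and 12.3 in replicate 2 (rank 9979). The col-13 summit (25.1) lay 104 bp upstream, with 12.1 in replicate 1 (rank 1972) and 9.93 in replicate 2 (rank 19120). The col-120 summit (25) lay 49 bp into coding sequence, with 11.4 in replicate 1 (rank 2576) and 11.3 in replicate 2 (rank 13040). The col-168 summit (24.8) lay 1053 bp upstream, with 8.23 in replicate 1 (rank 8592) and 12.6 in replicate 2 (rank 9152). By rank, col-104 stood higher in replicate 2, and col-125, col-13 and col-120 stood higher in replicate 1. The signals of the 2 lists have separate scales and are not compared.

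Below, col-104, col-125 and col-13 are shown at these summits, with 50 bp on each side and with the same capitals. They are the strongest matched summits that a collagen gene holds as its own by the definition above, which does not exclude pseudogenes. The windows are chrIV:1355381-1355481 (minus strand), chrIV:11225500-11225600 (plus strand) and chrV:10421956-10422056 (minus strand).
col-104: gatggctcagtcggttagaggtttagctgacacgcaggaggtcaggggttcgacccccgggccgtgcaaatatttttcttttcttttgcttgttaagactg
col-125: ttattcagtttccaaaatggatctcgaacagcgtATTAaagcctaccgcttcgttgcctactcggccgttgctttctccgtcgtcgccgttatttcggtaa
col-13: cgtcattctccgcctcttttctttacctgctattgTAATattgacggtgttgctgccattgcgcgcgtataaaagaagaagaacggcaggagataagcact
The core was found 1 time each at col-125 and col-13 and not at col-104.

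The furrow collagens DPY-2, DPY-3, DPY-7, DPY-8, DPY-9 and DPY-10 form the annular furrows that circle the body, and their loss gives short, dumpy worms. Of these 6 genes, 5 had a pooled summit, 3 a replicate 1 summit, 5 a replicate 2 summit and 3 a matched summit. Over all protein-coding genes the shares were 72.5%, 57.8%, 72.7% and 24.0%, in the same order. The groups by role hold few genes each, and their counts were not tested against these shares. Besides the summit shared by dpy-10 and dpy-2, dpy-3 had one of 18.1, 1092 bp upstream, with 7.15 in replicate 1 and 8.29 in replicate 2. The dpy-7 summit (17.1) lay 485 bp into the gene, in coding sequence, and was matched in replicate 2 (14.1) alone. The dpy-8 summit (11.9), 657 bp upstream, was matched in neither replicate. The gene dpy-9 had no summit in the pooled or either replicate list, and dpy-2 had further summits of 12.8 and 12.5 in its body, matched in neither.

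The annuli collagens, which build the ridges between furrows, had pooled summits at all 3 genes, dpy-4, dpy-5 and dpy-13, and replicate 2 summits at all 3, but no replicate 1 summit. Of all genes 72.5% had a pooled, 72.7% a replicate 2 and 57.8% a replicate 1 summit. The highest pooled summit of the 3 genes was at dpy-13 (18, 991 bp upstream, in an intron of zipt-2.2), with 13.4 in replicate 2. The dpy-4 summit (14.7) lay 460 bp upstream, in an intron of atln-2, with 14.8 in replicate 2. The dpy-5 summit (14) lay 1111 bp upstream, in coding sequence of F27C1.11, and the replicate 2 summit within 200 bp of it had 15.4.

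The rol and sqt genes, in which mutations twist or shorten the body, had pooled summits at 3 of 4 genes, against 72.5% of all genes. The rol-6 summit (19.2, rank 6352) lay 831 bp upstream, was its own, and was matched with 6.32 in replicate 1 and 12.2 in replicate 2. The sqt-2 summit (15.6) lay 1532 bp upstream, in coding sequence of gmeb-1, with 8.47 in replicate 2. A separate replicate 1 summit of sqt-2 (9.45) lay 72 bp upstream. The 2 sqt-3 summits (12.1 and 12) were near the lowest signal of the pooled list, 11.5. The gene sqt-1 had a replicate 2 summit (10.2) only.

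The strut collagens BLI-1 and BLI-2 form the columns between layers of the adult cuticle, a stage later than the one sampled. The bli-2 summit (13) lay 51 bp into coding sequence, within an intron of zyg-1, and was matched in replicate 2 (14.9), while bli-1 had a replicate 1 summit (12.2) only. Of the others, dpy-17 had a pooled summit of 11.9, 98 bp upstream, matched in neither replicate. The genes dpy-14, with a replicate 2 summit of 10.1, and lon-3, with a replicate 1 summit of 9.23, had none in the pooled list. The adult marker col-19 had a pooled summit of 16.4 in its coding sequence, 527 bp from the start and within an intron of ZK1193.2. It had 14.7 in replicate 1 and no match in replicate 2.

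In all, 13 of the 18 genes with other names had a pooled summit and 4 a matched one, dpy-2, dpy-3, dpy-10 and rol-6. Among the 156 col- genes the counts were 109 and 35. As shares these were 72.2% and 22.2% of the genes with other names and 69.9% and 22.4% of the col- genes. Over all protein-coding genes they were 72.5% and 24.0%. The share with a pooled summit ranged over chromosomes from 65.2% of collagen genes on I to 75.8% on V. All genes there had 75.3% and 68.8%. Matched summits were at 13% of collagen genes on I and 29.0% on II, against 27.7% and 23.5% of all genes. The chromosomes hold 13 to 44 collagen genes each, and the differences were not tested.

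Collagen summits were most frequent just upstream of the start, as for all genes, and more than 250 bp into the gene their shares were below those of all genes. In the 250 bp before the start, 13.2% of collagen genes had a pooled summit (interval 8.57 to 19.2), against 12% of all genes. In the 250 bp before that the shares were 11.5% and 9.69%. More than 1000 bp upstream they were 6.90% to 9.77% per 250 bp bin for collagen genes and 7.26% to 7.92% for all genes. Inside the gene, in the 250 bp bin from 500 bp after the start, 2.89% of collagen genes (interval 0.945 to 6.62) and 7.03% of all genes had one, each among genes long enough to reach that bin's end. The bin before it had 5.75% of collagen genes and 7.11% of all genes, and the bin after it 3.97% and 6.78%. Of the 181 pairs, 127 (70.2%) were upstream, while inside genes 28 fell in introns, 21 in coding exons and 5′ and 3′ UTRs held 3 and 2. For all genes 43.6% of pairs were upstream, a share that also depends on body length.

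**Figure D3:**
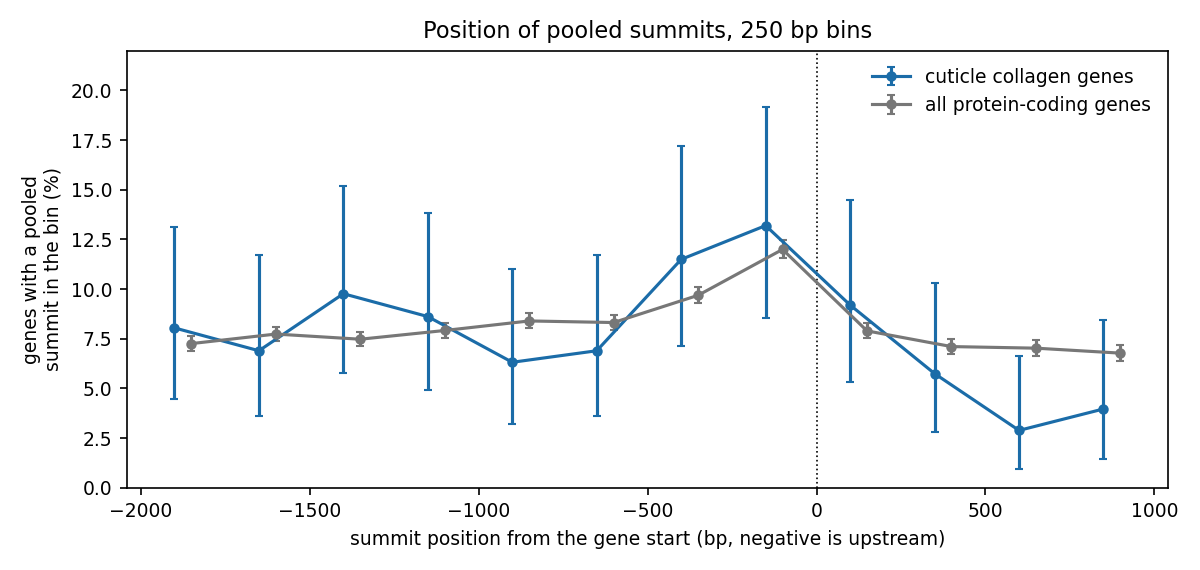
Percentage of cuticle collagen genes (blue) and of all protein-coding genes (grey) with a pooled summit in each 250 bp bin by distance from the gene start, with exact 95% intervals. Both profiles are highest in the 250 bp before the start, at 13.2% and 12%, and the collagen value is the lower one inside the gene in the bin from 500 bp, at 2.89% against 7.03%.

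At the outer limit of the window, 7 summits lay in the last 100 bp inside it, including those of col-94 (35.2), col-81 (30.2) and col-117 (23.3), and 4 lay in the first 100 bp outside it, at col-140, col-151, col-3 and col-80, with signals from 14.4 to 15.4. With the window extended to 3000 bp, col-81 gained an IDR summit (44.8) at 2718 bp.

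The 2 replicates shared a limited part of the summits, at collagen genes and over all genes. Of the 173 pooled summits, 44 (25.4%, interval 19.1 to 32.6) were matched in both, 24 (13.9%) in replicate 1 alone, 76 (43.9%) in replicate 2 alone and 29 (16.8%) in neither. Over all gene summits 19.4% were matched in both, 17.7% in replicate 1 alone, 47.8% in replicate 2 alone and 15.1% in neither. The replicate 1 list is the shorter one, with 19150 peaks against 30000. Over the 43 distinct pairs of replicate summits, signals were related by a Spearman's rho of 0.14, and by a Pearson's r of 0.30 after log2. Leaving out the 2 pairs of col-94 gave 0.12 for rho and 0.13 for r. These are descriptions across summits of the same 2 libraries, which were selected for presence in the pooled list. In the pairs the signal ran from 6.32 to 28.3 in replicate 1 and from 8.27 to 35.7 in replicate 2.

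**Figure D4:**
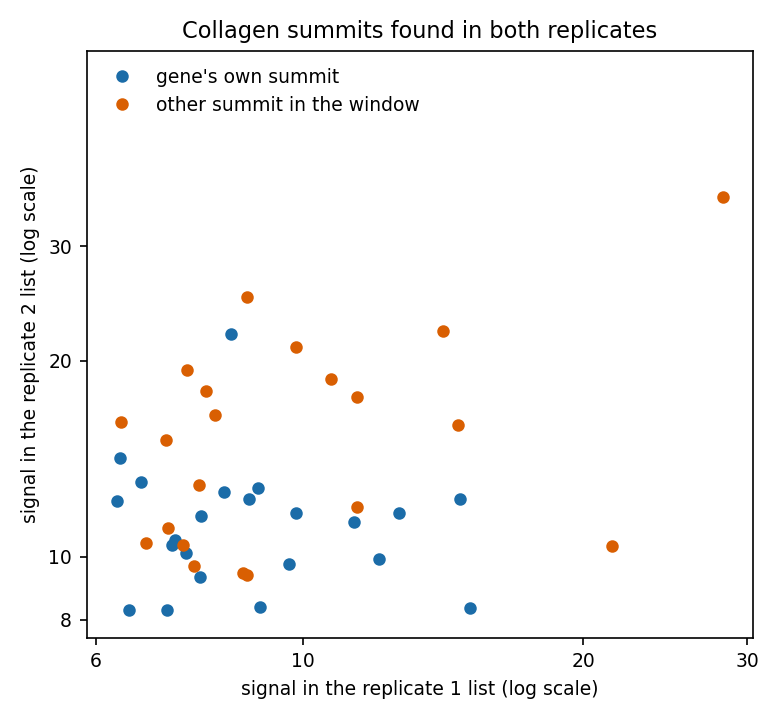
Signal in the replicate 1 list against signal in the replicate 2 list, both on log scales, for the 43 distinct pairs of replicate summits in collagen windows, with a gene's own summits in blue and others in orange. The point at the upper right is the summit upstream of col-94, at 28.3 and 35.7, and rho over all the points is 0.14.

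The engrailed-type word TAATTA, searched on both strands within 50 bp, was at 12 of the 173 collagen summits (6.94%, interval 3.64 to 11.8) and at 5.19% of all gene summits. The strongest of them were at col-128 (23.8) and col-143 (19.3), each matched in 1 replicate, and the one at col-105 (17) was matched in both. Those at bli-2 and dpy-2 had signals of 13 and 12.8. In the single replicate lists the word was at 2.75% to 3.64% of collagen summits, and the share over all summits of those lists was not computed. The word TAATTG was at 9.25% of collagen and 9.23% of all summits, and the core TAAT, which both words contain, at 65.3% and 66.1%. The word GATAA, the core read by GATA factors such as the epidermal factors ELT-1 and ELT-3, was at 54 collagen summits (31.2%, interval 24.4 to 38.7) and at 22.5% of all. GAGAGA was at 6.36% and 6.69%, CGCGCA at 0.578% and 1.78%, and TTTAAA at 13.3% and 17.3%. Median GC content within 200 bp was 35.2% at collagen summits and 34.4% at all summits.

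In promoters, taken as 250 bp before to 50 bp after the start, TAATTA was in 14.9% of collagen genes and 15.5% of all nuclear protein-coding genes. GATAA was in 64.4% of collagen and 57.6% of all promoters. GAGAGA was in 28.2% and 21.8%, and TTTAAA in 20.7% of collagen and 41.1% of all promoters. A match is a description of the letters and not of binding.

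Some collagen genes are near-copies of each other, where reads cannot always be placed. The share of 30-base words in the window found more than once in the genome had a median of 2.23% for collagen genes and 1.05% for all genes. It was above 20% at 28 collagen genes (16.1%), against 10.4% of all genes. It reached 75% at the neighbours col-3 and col-117 and was 31.2% at col-94, whose body alone had 83.9%. Of the 28 genes, 18 (64.3%) had a pooled summit, against 41.9% of all genes with over 20%. Among the genes with own summits described above, the body share was 83.7% at col-13, 95.9% at col-168, 72.7% at col-144 and 42.6% at col-125. Within the peaks themselves it was 5.92% at col-13, 0.0% at col-168 and 5.30% at col-125. The part of shared reads in the signals was not tested, and how the aligner placed such reads is not given in the sources used here.

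Other genes of the cuticle were read in the same way. Most lists hold long genes, and of all protein-coding genes with bodies over 4000 bp 89.9% had a pooled and 40.0% a matched summit. All 14 genes for collagen folding and processing had a pooled summit and 9 a matched one. The highest signals were at pdi-1 (39.6), which encodes a protein disulphide isomerase and had no matched summit, dpy-11 (32.3), which encodes a thioredoxin-like protein, and pdi-3 (29.0). Of 12 moulting genes, 9 had a pooled summit and 1, mlt-8 (22.4), a matched one, and mlt-10 had the highest signal (32.6), followed by mlt-8 and the astacin protease gene nas-37 (17.9). Of 15 genes for non-collagen cuticle and apical matrix, 14 had a pooled and 7 a matched summit, led by sym-1 (24), a gene for a secreted leucine-rich repeat protein, and by noah-2 (22.7) and dyf-7 (21.6), which encode zona pellucida domain proteins. Both matched collagens outside the naming rule, rol-8 (24.6) and bli-6 (22.8), had matched summits. Of 4 genes for collagens other than those of the cuticle, all had a pooled summit and 2 a matched one. The highest signals among these 4 were at cle-1 (24.3), let-2 (18) and emb-9 (16.8).

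Among 16 regulators of cuticle genes, 15 had a pooled and 10 a matched summit, and 1 had an IDR summit, against 1.25% of all genes. This was elt-1 (54.9), which encodes the GATA factor that specifies epidermis, with 19 as the highest in replicate 1 and 33.4 in replicate 2. The nuclear receptor gene nhr-25 (38.9), needed for moulting and epidermal development, and sma-9 (37.3), which encodes a zinc finger protein of the body size pathway, came next. These lists have median bodies of 4343 bp or more, apart from the 2 further collagens. Their counts are not comparable with those of the short collagen genes without that difference in mind.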

How the data were processed

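Peak lists on ce11 were taken as deposited, for 2 biological replicates of 1 group. Lists were called per replicate and on pooled replicates, and 1 was thresholded by IDR, per the deposited text. No source used here names the aligner or peak caller, and the control was not analysed here. The signal per peak, as deposited by the authors, has no stated scale. The ce10 lists were not used. Genes came from Ensembl release 115 (WBcel235), and bases from the RefSeq copy of the same assembly. Coordinates are 1-based.

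Summits were assigned to windows, matched within 200 bp and searched for words within 50 bp. The 174 members, gene lists and words were chosen with earlier results of these data known, and no significance test was run, since there is 1 group and no contrast. Shares stand beside those over all 19985 protein-coding genes (12 of them mitochondrial). Genes named were the 18 with other names, col-19, the 12 of highest pooled signal, the 15 strongest with matched summits, any with an IDR summit and the 3 strongest of each other list. The genes named for shared sequence, for the window limit, for TAATTA and for the highest number of summits were chosen after their values were seen. ram-4 was not matched. Assignment and matching were checked on planted summits. The work used scipy 1.17.1, pandas 2.3.3, numpy 2.4.6 and matplotlib 3.10.9 under Python 3.11.15. Alternatives changed the window, assignment, match distance, peak number, members, word distance and replicates.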

Additional observations from a re-analysis of the deposited data

How the results depend on the processing

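Of 53 alternative values, 25 stayed within the spread of the reported value and 28 moved. The share of collagen genes with a pooled summit, 70.1%, was 55.75% with 1000 bp upstream (all genes 63.79%), 47.7% with 500 bp (57.64%), 79.89% with 3000 bp (78.74%), 56.9% by nearest start (59.55%), 33.91% with the 10000 peaks of highest signal (36.66%), 20.11% with 5000 (21.2%) and 40.23% with own summits only. With 1 replicate list in place of the pooled list it was 51.72% to 66.09%. The matched share, 22.4%, was 14.94% with 1000 bp, by nearest start or with 5000 peaks (all genes 19.93%, 17.2% and 14.06%), 13.22% with 500 bp (17.39%), 8.621% with a match distance of 50 bp (11.54%) and 11.49% with own summits only; it needs both replicates, so it was not run without one. The IDR share was 0.0% with 1000 or 500 bp and among genes with other names. The median signal was 21.11 with 10000 peaks, 23.8 with 5000 and 7.887 to 11.08 in single replicate lists, whose scales differ. The upstream share was 78.87% with 10000 peaks, 82.5% with 5000, 55.74% with 1000 bp, 62.31% by nearest start and 64.66% to 73.99% in single replicates. TAATTA was at 3.125% of summits with 10000 peaks (2 of 64), 2.703% with 5000 (1 of 37) and 2.752% to 3.636% in single replicates (3 of 109 and 6 of 165). The shares over all summits of these subsets were not computed.

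For pooled summits the collagen share was below that of all genes in 9 of 10 settings, the reported one included. With 3000 bp it was above, and the gap was widest with 500 bp. For matched summits the collagen share was below in 8 settings and above in 2. None of these settings compared genes of similar body length. Among genes with bodies of 1059 to 1600 bp the collagen share was the higher one, 69.8% against 64.2% for pooled and 20.9% against 17% for matched summits. For bodies over 2000 bp, with few members, it was the lower one. The alternatives with own summits only and without repeated windows were chosen after seeing the data. No paired analysis was possible because there is 1 group. The lists give no read depth, and 2 replicates give no test. A summit absent from a list was not among the peaks that the list holds, which does not show that binding was absent. The pooled and replicate 2 lists each hold exactly 30000 peaks.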
